A study of Mus musculus with 6 samples.

Results

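Pulmonary surfactant genes were examined in whole mouse lung after naphthalene, as a set of 9 genes chosen by name: the surfactant proteins Sftpa1, Sftpb, Sftpc and Sftpd, the lipid transporter Abca3, the lamellar body membrane protein Lamp3, the lipid enzyme Lpcat1, the aspartic protease Napsa and the phosphate carrier Slc34a2. All 9 were measured, each by 1 probe set annotated to that gene alone, out of 16537 genes tested. None of them passed the test between arrays labelled FalcorKO and WildType arrays. Sftpd, with a log2 difference of -0.47, was the only member whose groups did not overlap. For the other 8 members, a split made after the values were seen, the differences lay between -0.10 and 0.12 on the log2 scale.

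The study put RNA of whole lung from mice null for Falcor (Falcor-/-, titled FalcorKO) and from wild-type mice (titled WildType) on 6 single-channel arrays, 3 per group. Falcor is a long non-coding RNA gene named in the study's title as a regulator of the transcription factor gene Foxa2. All 6 samples shared the strain label CD1_C57Bl6_mix and had been given naphthalene, a compound that is activated in the club cells of the airway and kills them. The treatment labels read 31, 32 and 33 days after naphthalene for FalcorKO replicates 1 to 3, and 28, 29 and 30 days for WildType replicates 1 to 3, so day and genotype cannot be told apart as the labels stand. The numbers increase by 1 with every sample, and it is not known here if they are true days or a counter in the label. Untreated lungs and ages of the animals were not in the labels used here. The labels did not state that the samples came from separate animals, so the p-values reflect variation among the 6 deposited samples, part of which could be technical. In whole lung, fewer cells of a type and less RNA per cell cannot be told apart.

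Surfactant is a film of lipids and proteins that lowers surface tension in the alveoli. Type 2 cells of the alveolar epithelium make it, store it in lamellar bodies and release it by exocytosis, after which type 2 cells take part of it up again and alveolar macrophages degrade the rest. The hydrophobic proteins Sftpb and Sftpc spread the film, whereas the collectins Sftpa1 and Sftpd bind microbes and, in the case of Sftpd, regulate the size of the surfactant pool. Sftpa1, Sftpb and Sftpd are also expressed in club cells of the airway. Transcription of these genes in lung depends on Nkx2-1 and on Foxa factors, among others.

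Promoter sequence is shown because the study concerns Foxa2. RefSeq promoters (assembly GRCm38.p6, 250 bases before to 50 bases after the start) were given for 6 of the 9 members, Sftpa1, Sftpb, Abca3, Lamp3, Lpcat1 and Slc34a2. They were searched on both strands for TGTTTAC and TGTTTGC, core forms of the Foxa motif, and for CTCAAG, a core of the Nkx2-1 motif. A Foxa core stood in 2 of the 6 (Sftpb and Lamp3), against 8.47% of 32817 promoters of the same length, and the Nkx2-1 core in 2 of the 6 (Sftpa1 and Sftpb), against 15.9%. Sftpb held both kinds, as did 1.24% of all promoters. Its Nkx2-1 cores began 100 and 15 bases before the start, its Foxa core (reverse strand) 88 bases before it. The Foxa core of Lamp3 began 92 and the Nkx2-1 core of Sftpa1 166 bases before the start. These 3 promoters follow, 5′ to 3′ on the strand of the gene, with the matches in capitals and no overlap between matches.
Sftpb, chr6:72304360-72304659, plus strand: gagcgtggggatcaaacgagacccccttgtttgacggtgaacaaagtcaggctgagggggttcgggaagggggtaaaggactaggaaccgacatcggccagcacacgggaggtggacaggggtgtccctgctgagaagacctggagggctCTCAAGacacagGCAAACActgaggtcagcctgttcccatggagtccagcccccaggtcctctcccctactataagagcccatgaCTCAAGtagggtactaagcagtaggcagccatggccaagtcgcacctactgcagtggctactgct
Lamp3, chr16:19706316-19706615, minus strand: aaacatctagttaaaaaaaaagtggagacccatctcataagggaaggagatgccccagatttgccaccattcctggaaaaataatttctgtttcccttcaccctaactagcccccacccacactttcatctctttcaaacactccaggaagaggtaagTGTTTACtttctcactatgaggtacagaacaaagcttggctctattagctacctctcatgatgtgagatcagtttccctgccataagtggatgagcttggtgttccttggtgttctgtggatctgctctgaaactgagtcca
Sftpa1, chr14:41131538-41131837, plus strand: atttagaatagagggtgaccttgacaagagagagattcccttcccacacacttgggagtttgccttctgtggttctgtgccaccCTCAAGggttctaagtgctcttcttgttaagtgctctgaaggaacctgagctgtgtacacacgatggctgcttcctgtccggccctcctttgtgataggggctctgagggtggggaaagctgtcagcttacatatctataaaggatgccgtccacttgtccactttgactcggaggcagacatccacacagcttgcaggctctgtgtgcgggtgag
A match describes these letters only and is not a measured site. With only 2 of the 6 promoters holding each core, values were not compared between promoters with and without a match.

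The arrays gave log2 signals of 24173 probe sets, with medians of 6.69 to 6.70 on the arrays labelled FalcorKO and 6.72 to 6.74 on the WildType arrays, and their number limits the precision. The spread over probe sets was smaller on the arrays labelled FalcorKO (SD 1.692 to 1.695) than on the WildType arrays (SD 1.699 to 1.731). The Falcor probe set, listed as 9030622O22Rik, read 6.82, 6.34 and 6.32 on the arrays labelled FalcorKO, against 4.69, 5.01 and 5.45 on the WildType arrays. It was thus higher under the null label (log2 difference 1.44, SE 0.21, limma adjusted p = 0.0423), a call that was lost with any single array but WildType replicate 3 left out (log2 differences of 1.26 to 1.53). The Falcor probe set had a mean signal at percentile 26.6 of all genes, with no detection calls. Whether it lies in the deleted stretch is not known here. A probe set outside that stretch checks nothing, so every direction below rests on the titles. The sampled tissue showed lung markers: the 32 other type 2 cell markers averaged 9.80 to 9.91 on the arrays labelled FalcorKO and 9.81 to 9.94 on the WildType arrays.

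Across the 9 members, 4 were higher (all genes: 50.8%) and 5 lower (all genes: 49.2%) on the arrays labelled FalcorKO, with a median log2 difference of -0.0025, where the median of all genes was 0.0026. In limma, 0 of the 9 passed an adjusted p of 0.05, against 0.556% of all genes, and 1 of 9 (Sftpd) had an unadjusted p under 0.05, against 13.8% of all genes. Groups did not overlap for 1 of the 9, against 19.5% of all genes. Both of the last shares are near the background. The 95% intervals below are those of each gene alone and were not widened for the number of members. With Sftpd set apart after the values were seen, every interval of the other 8 members included 0 and lay within log2 bounds of -0.30 and 0.38. In array signal that is at most 1.24-fold lower or 1.30-fold higher. All 9 members had a mean signal at or above percentile 98.1 of all genes. Differences near the top of the scale can be compressed, so these bounds may be too narrow for the change in RNA.

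**Figure D1:**
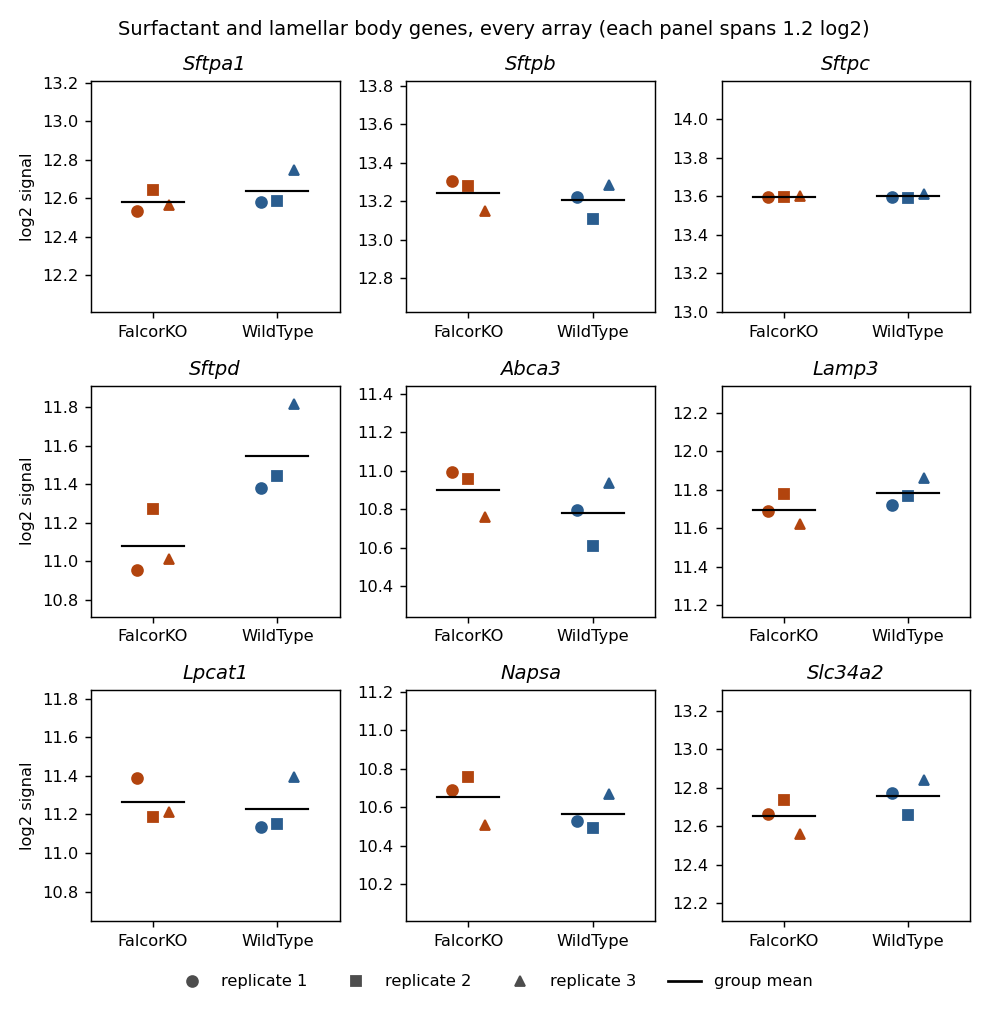
Log2 signal (vertical axes, each spanning 1.2 log2 units) of the 9 members on the 3 FalcorKO and the 3 WildType arrays. Symbols mark replicates and horizontal lines group means. The groups overlap in every panel but that of Sftpd, and the 6 points of Sftpc lie between 13.59 and 13.61.

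Among the collectins, Sftpd, the carbohydrate-binding surfactant protein D of alveolar and airway epithelium, read 10.95, 11.27 and 11.01 on the arrays labelled FalcorKO, against 11.38, 11.44 and 11.81 on the WildType arrays. All arrays labelled FalcorKO lay below all WildType arrays, as did 10.6% of all genes. The means were 11.08 ± 0.17 and 11.54 ± 0.24 (SD, n = 3 each), a log2 difference of -0.47 (SE 0.14, 95% interval -0.79 to -0.14) or 1.38-fold lower. It did not pass (limma adjusted p = 0.21), and 888 genes (5.37%) had a p at least as small. WildType replicate 3 was the highest of the 6 arrays, and without it the difference was -0.33 (adjusted p = 0.338). Over all 16 alternatives the adjusted p of Sftpd ranged from 0.152 to 0.44.

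Sftpa1, the more abundant collectin of the film, read 12.53, 12.64 and 12.56 on the arrays labelled FalcorKO, against 12.58, 12.58 and 12.75 on the WildType arrays. The groups overlapped, with a difference of -0.06 (95% interval -0.25 to 0.14, adjusted p = 0.82). In the RefSeq gene order of GRCm38.p6, the only protein-coding gene between Sftpa1 and Sftpd is Mbl1, a mannose-binding lectin. Mbl1 averaged 5.67 ± 0.10 on the arrays labelled FalcorKO and 5.69 ± 0.09 on the WildType arrays (SD, n = 3 each). Its log2 difference was -0.02 (limma adjusted p = 0.945). The mean signal of Mbl1 lay at percentile 24.6 of all genes, with no detection calls, so its value cannot show whether this cluster changed with Sftpd. Whether the differences of Sftpd and Sftpa1 differ from each other was not tested. Of the other collectins and ficolins, 5 of 7 were measured, 3 higher and 2 lower, and none passed. They had a median of 0.05. Those with the smallest p were the scavenger collectin Colec12 (0.27, adjusted p = 0.377), Fcnb (0.10, adjusted p = 0.757) and Fcna (-0.03, adjusted p = 0.936). Fcnb and Fcna had mean signals at percentiles 1.5 and 24.7 of all genes, with no detection calls.

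Of the hydrophobic proteins, Sftpb, which organises lamellar body membranes and which newborn mice need to breathe, read 13.31, 13.28 and 13.15 on the arrays labelled FalcorKO, against 13.22, 13.11 and 13.29 on the WildType arrays. The lowest and the highest single values stood in different groups and the ranges overlapped. Its difference was 0.04 (95% interval -0.16 to 0.24, adjusted p = 0.882), an interval that in folds of the WildType level runs from 0.896 to 1.18. Sftpc, a small membrane-spanning protein that is the most specific marker of type 2 cells, read 13.59, 13.60 and 13.60 on the arrays labelled FalcorKO, against 13.60, 13.59 and 13.61 on the WildType arrays. The difference was -0.0025 (95% interval -0.16 to 0.15, adjusted p = 0.993). The highest value on any array was 13.9, and differences this close to the top of the scale can be compressed, so that the Sftpc probe set bounds a change less well than its spread (SD 0.0025 and 0.0084) would make it appear.

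Among the lamellar body proteins, Abca3, which pumps phospholipid into the organelle, read 10.99, 10.96 and 10.76 on the arrays labelled FalcorKO, against 10.80, 10.61 and 10.94 on the WildType arrays. It had the largest positive difference of the members, 0.12 (95% interval -0.14 to 0.38, adjusted p = 0.693), with overlapping groups. Without WildType replicate 2, its lowest array, the difference was 0.03. Lamp3, a membrane glycoprotein of lamellar bodies that is also found in mature dendritic cells in human, read 11.69, 11.78 and 11.63 on the arrays labelled FalcorKO, against 11.72, 11.77 and 11.86 on the WildType arrays. The difference was -0.09 (95% interval -0.28 to 0.10, adjusted p = 0.694). The mature dendritic cell markers had 9 of 12 measured lower (all genes: 49.2%), and 2 passed as lower (all genes: 0.46%). Those that passed were the chemokines Ccl17 (-1.81, adjusted p = 0.0212) and Ccl22 (-1.27, adjusted p = 0.0131), while Ccr7 gave -0.61 (adjusted p = 0.115). With 1 array left out, the Ccl22 call was lost without FalcorKO replicate 2 (adjusted p = 0.0627). The Ccl17 call was lost without FalcorKO replicate 2 or any 1 of the WildType replicates (adjusted p 0.0554 to 0.0906). Their mean log2 level was 7.15 to 7.21 on the arrays labelled FalcorKO and 7.57 to 7.70 on the WildType arrays, and the part of these cells in the Lamp3 value was not tested.

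Lpcat1, which remodels phosphatidylcholine into the disaturated form typical of surfactant, read 11.39, 11.19 and 11.21 on the arrays labelled FalcorKO, against 11.13, 11.15 and 11.40 on the WildType arrays. In each group 1 array stood above the other two, and the ranges overlapped (difference 0.04, 95% interval -0.20 to 0.28, adjusted p = 0.917). Napsa, the protease napsin A that takes part in the processing of the Sftpb precursor, read 10.69, 10.76 and 10.51 on the arrays labelled FalcorKO, against 10.53, 10.49 and 10.67 on the WildType arrays (difference 0.09, 95% interval -0.13 to 0.31, adjusted p = 0.742). Slc34a2, the sodium-phosphate carrier that returns phosphate from degraded surfactant lipid to type 2 cells, read 12.66, 12.74 and 12.56 on the arrays labelled FalcorKO, against 12.77, 12.66 and 12.84 on the WildType arrays. Its difference was -0.10 (95% interval -0.30 to 0.10, adjusted p = 0.661), and the groups overlapped.

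**Figure D2:**
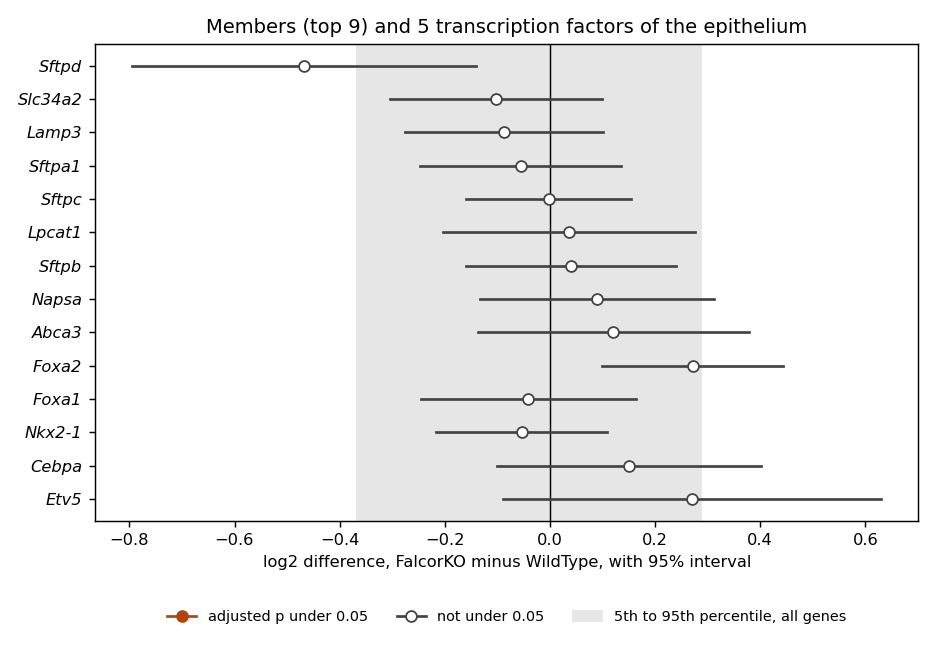
Log2 difference, FalcorKO minus WildType, with its 95% interval (horizontal axis) for the 9 members in order of the difference and, below them, for Foxa2, Foxa1, Nkx2-1, Cebpa and Etv5. The grey band spans the 5th to 95th percentile of the differences of all genes (-0.37 to 0.29). Open circles mark genes that did not pass. Sftpd lies left of the band.

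Single arrays stood high or low for many members at once. Relative to each gene's own mean over the 6 arrays, WildType replicate 3 was the highest WildType array for 9 of the 9 members and the highest of all 6 arrays for 6 of them. On the arrays labelled FalcorKO, replicate 3 was the lowest of its group for 5 members and replicate 2 the highest for 5. These counts were not set beside those of all genes, so they do not show whether the arrays differed at these members in particular. The 8 members other than Sftpd deviated on average by 0.04, 0.05 and -0.07 on FalcorKO replicates 1 to 3, against -0.03, -0.08 and 0.10 on WildType replicates 1 to 3. Thus each group held arrays on either side of 0 for these 8 genes, a split made after the values were seen. With Sftpd included, the 9 members averaged -0.01, 0.04 and -0.10 on FalcorKO replicates 1 to 3. On WildType replicates 1 to 3 they averaged -0.02, -0.05 and 0.14, again with both signs in each group. Sftpd deviated by -0.36, -0.04 and -0.30 on the arrays labelled FalcorKO and by 0.07, 0.13 and 0.50 on the WildType arrays. It was negative on every array labelled FalcorKO and positive on every WildType array. Because Sftpd was set apart for its lack of overlap, its contrast with the other 8 in part restates that choice.

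**Figure D3:**
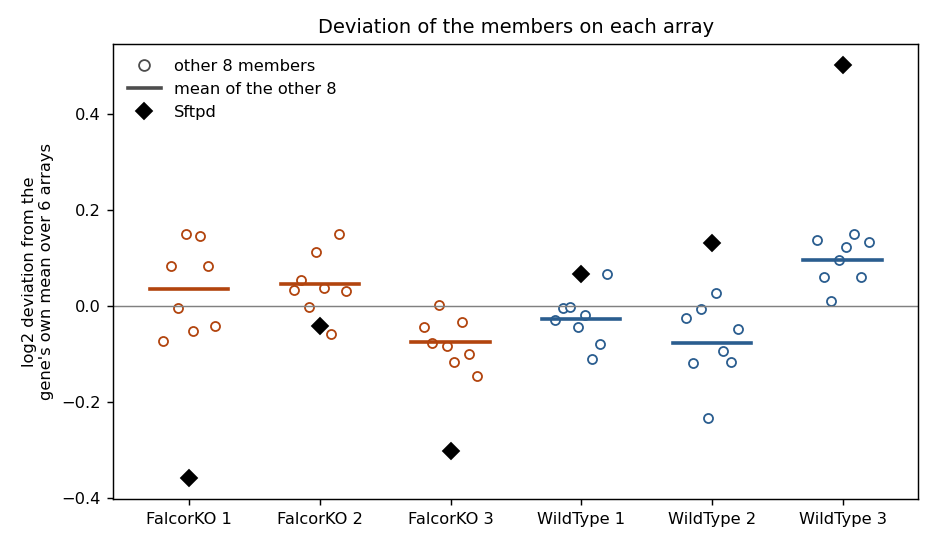
Deviation of each member's log2 signal from that gene's own mean over the 6 arrays (vertical axis), by array. Open circles are the other 8 members, bars their mean, and black diamonds Sftpd. The bars lie between -0.08 and 0.10 with both signs in both groups. Sftpd, set apart after the values were seen, runs from -0.36 on FalcorKO replicate 1 to 0.50 on WildType replicate 3.

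The transcription factors of the surfactant genes did not pass either. Foxa2 read 8.19, 8.15 and 8.05 on the arrays labelled FalcorKO, against 7.85, 7.89 and 7.84 on the WildType arrays, with a 95% interval of 0.10 to 0.44 for its difference of 0.27 (adjusted p = 0.175). Its groups did not overlap, the arrays labelled FalcorKO being above, as for 8.96% of all genes. The interval of Foxa1 ran from -0.25 to 0.16, that of Nkx2-1, the lung lineage factor, from -0.22 to 0.11, that of Cebpa, needed for type 2 cell maturation, from -0.10 to 0.40, and that of Etv5, a factor that maintains type 2 cells, from -0.09 to 0.63. Of 23 measured transcription factors and signals of type 2 cells, 16 were higher (all genes: 50.8%) and 7 lower, and the median was 0.05. Of these, 0 passed and 3 had an unadjusted p under 0.05 (all genes: 13.8%), all higher (all genes: 6.11%). Klf5 (0.26, adjusted p = 0.239) and Nfib (0.22, adjusted p = 0.284), which acts in lung maturation, had the smallest p after Foxa2.

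Enzymes and regulators of surfactant lipid synthesis had a median difference of -0.08. Of 25 measured, 9 were higher and 16 lower (all genes: 49.2%), and none passed in limma. An unadjusted p under 0.05 was found for 3 (all genes: 13.8%), all lower (all genes: 7.65%). The stearoyl-CoA desaturase Scd1 read 12.61, 12.66 and 12.57 on the arrays labelled FalcorKO, against 12.76, 12.90 and 12.89 on the WildType arrays, without overlap (-0.24, adjusted p = 0.24). Lpcat2, a relative of Lpcat1 in inflammatory cells, gave -0.38 (adjusted p = 0.247) and Plin2, which coats lipid droplets, -0.57 (adjusted p = 0.275). Lpcat2 and Plin2 are also expressed in macrophages, whose 13 measured markers were all lower with none passing, as given below, and the part of those cells in these values was not tested.

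Genes of lamellar body trafficking, proprotein processing and secretion were spread to both sides of 0. Of 27 measured, 11 were higher and 16 lower, with a median of -0.06, and 0 passed in limma. An unadjusted p under 0.05 was found for 7 (all genes: 13.8%). Of these, 4 were higher (all genes: 6.11%) and 3 lower (all genes: 7.65%). Pgc is the pepsin precursor progastricsin, which in human type 2 cells can take part in Sftpb processing. It averaged 5.63 ± 0.12 on the arrays labelled FalcorKO and 5.17 ± 0.21 on the WildType arrays (SD, n = 3 each). Its log2 difference was 0.46 (limma adjusted p = 0.164), at a signal in percentile 19.5 of all genes, with no detection calls. Hps5, a subunit of a complex in the making of lysosome-related organelles such as lamellar bodies, averaged 7.68 ± 0.03 on the arrays labelled FalcorKO and 7.42 ± 0.01 on the WildType arrays (0.26, adjusted p = 0.166). The secreted protein Lgi3 averaged 10.43 ± 0.13 on the arrays labelled FalcorKO and 10.06 ± 0.10 on the WildType arrays (0.37, adjusted p = 0.166). All 3 were without overlap and above in the arrays labelled FalcorKO. Of the 27 genes, 5 were without overlap and above (all genes: 8.96%). More, 6, were without overlap and below (all genes: 10.6%).

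Relatives of Slc34a2, Abca3 and Lamp3 divided evenly. Of 16 measured SLC34, SLC20, ABCA and LAMP family genes, 8 were higher and 8 lower, and the median was 0.02. None passed in limma and 2 had an unadjusted p under 0.05 (all genes: 13.8%). The macrophage member Cd68 gave -1.32 (adjusted p = 0.146), the transporter Abca5 0.26 (adjusted p = 0.222) and the kidney phosphate carrier Slc34a1 0.34 (adjusted p = 0.428). The Slc34a1 value was 0.13 without FalcorKO replicate 3, at a signal in percentile 1.5 of all genes.

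The other type 2 cell markers had a median of -0.03, with 14 higher and 18 lower of 32 measured. None passed in limma and 6 had an unadjusted p under 0.05 (all genes: 13.8%), 3 in each direction. Lcn2, lipocalin 2, an iron-sequestering defence protein that other epithelial cells and neutrophils also make, averaged 10.64 ± 0.19 on the arrays labelled FalcorKO and 11.36 ± 0.18 on the WildType arrays (-0.72, adjusted p = 0.0765). The X-linked gene Bex4 averaged 6.92 ± 0.14 on the arrays labelled FalcorKO and 6.33 ± 0.12 on the WildType arrays (0.59, adjusted p = 0.0734). Its relative Bex2 averaged 7.02 ± 0.59 on the arrays labelled FalcorKO and 5.84 ± 0.36 on the WildType arrays (1.18, adjusted p = 0.155). These SDs are over 3 arrays per group.

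Genes that act after secretion came next in the pathway. Surfactant uptake and clearance genes had a median log2 difference of -0.40, with 16 of 18 measured lower (all genes: 49.2%). An unadjusted p under 0.05 was found for 6, all lower (all genes: 7.65%), and 1 gene passed (all genes: 0.46% as lower). That gene, Csf2, encodes GM-CSF, the cytokine that alveolar macrophages need to mature and to degrade surfactant and that type 2 cells produce. Csf2 read 5.09, 5.26 and 5.06 on the arrays labelled FalcorKO, against 5.72, 5.97 and 5.97 on the WildType arrays, without overlap. Csf2 fell 1.68-fold (log2 difference -0.75, SE 0.10, 95% interval -0.99 to -0.51, limma adjusted p = 0.0324). Its mean signal lay at percentile 21.7 of all genes, with no detection calls to show how far above background. The difference kept its size with any array left out (-0.83 to -0.71), but the call was lost without each of the 3 FalcorKO replicates (adjusted p = 0.124, 0.0777 and 0.0853 for replicates 1 to 3), without WildType replicate 2 (0.115) or WildType replicate 3 (0.111).

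Csf2rb2 and Pparg of the same list were lower without passing. Csf2rb2, a beta chain gene of the interleukin 3 receptor in mice and a close relative of Csf2rb, read 6.57, 7.01 and 7.18 on the arrays labelled FalcorKO, against 7.49, 8.45 and 7.84 on the WildType arrays (-1.01, SE 0.25, adjusted p = 0.15). Csf2rb2 and Csf2rb resemble each other in sequence, and signal may be shared between them. Pparg, the nuclear receptor that GM-CSF induces in alveolar macrophages, read 6.88, 6.98 and 7.12 on the arrays labelled FalcorKO, against 7.37, 7.59 and 7.53 on the WildType arrays (-0.50, SE 0.10, adjusted p = 0.0854). Csf2rb2 and Pparg were without overlap between the groups. For the receptor genes Csf2ra (-0.505, adjusted p = 0.253) and Csf2rb (-0.55, adjusted p = 0.445) the groups overlapped.

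**Figure D4:**
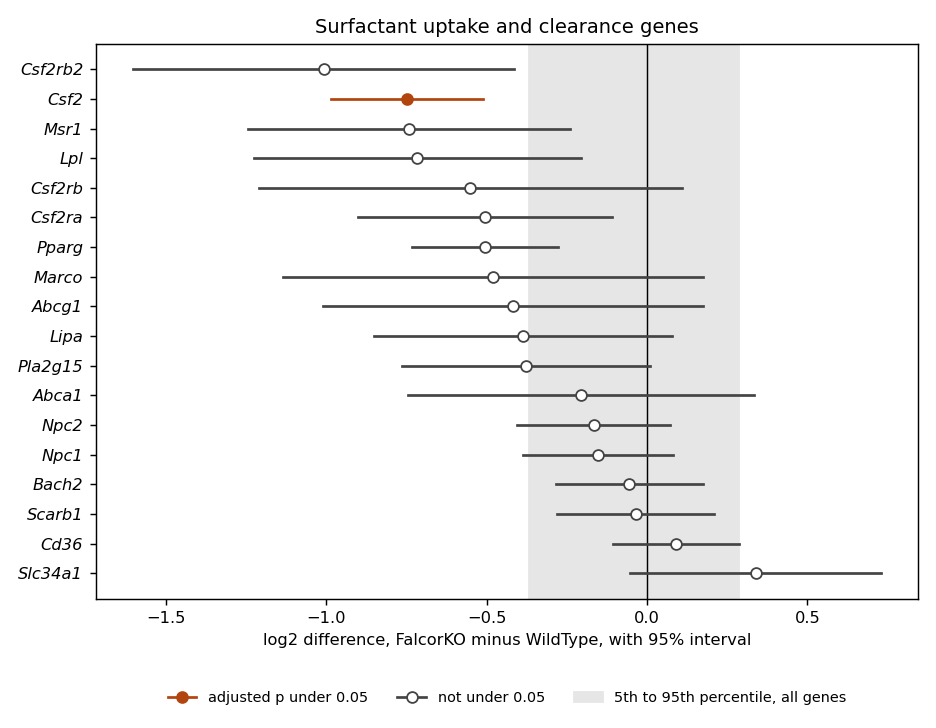
Log2 difference, FalcorKO minus WildType, with its 95% interval (horizontal axis) for the 18 measured genes of surfactant uptake and clearance. The filled circle is Csf2, which passed, and open circles mark genes that did not. The grey band spans the 5th to 95th percentile of all genes, and 16 of the 18 points lie left of 0.

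Markers of alveolar macrophages, which carry out clearance, were counted beside these values. Of 13 measured alveolar macrophage markers, all were lower (all genes: 49.2%), with a median of -0.53 and none passing. Of these, 7 had an unadjusted p under 0.05 (all genes as lower: 7.65%). Their mean log2 level was 8.09 to 8.59 on the arrays labelled FalcorKO and 8.66 to 9.19 on the WildType arrays. Chil3 gave -1.12 (adjusted p = 0.0748) and Ctsk -1.35 (adjusted p = 0.123), and 2 genes, Pparg and Marco, stand in both this list and the clearance list. All 10 leukocyte markers were lower as well, with a median of -0.58. All 10 had an unadjusted p under 0.05 (all genes as lower: 7.65%) and groups without overlap (all genes as below: 10.6%). Cd52 (-1.08, adjusted p = 0.00651) and Cd37 (-0.74, adjusted p = 0.018) fell, while Rac2 gave -0.68 (adjusted p = 0.0579). The Cd52 call held with any array left out, and the Cd37 call was lost with any array but WildType replicate 1 left out (adjusted p 0.0505 to 0.079). Their mean log2 level was 8.35 to 8.53 on the arrays labelled FalcorKO and 8.97 to 9.14 on the WildType arrays. What part these cells have in the Csf2, Csf2rb2 and Pparg values was not tested.

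Markers of type 1 and club cells were counted beside the surfactant genes. Type 1 cell markers, of the thin gas-exchange cells that type 2 cells give rise to, were higher for 16 of 17 (all genes: 50.8%). Their median was 0.18. Of the 17, 5 were higher at an unadjusted p under 0.05 (all genes: 6.11%) and 1 passed as higher (all genes: 0.0968%). For 10 the groups did not overlap, with the arrays labelled FalcorKO above (all genes: 8.96%). Spock2, a proteoglycan, rose 1.76-fold (adjusted p = 0.0324), a call that was lost with any array but WildType replicate 1 left out (adjusted p up to 0.124), while Vegfa gave 0.38 (adjusted p = 0.11) and Igfbp2 1.13 (adjusted p = 0.134). Their mean log2 level was 9.90 to 10.08 on the arrays labelled FalcorKO and 9.71 to 9.77 on the WildType arrays. Club cell markers, of the other cells that express Sftpa1, Sftpb and Sftpd, had a median of 0.02, with 6 higher and 5 lower of 11. The secreted airway protein Bpifa1 fell (-1.51, adjusted p = 0.0383), a call lost with any array left out (adjusted p 0.0554 to 0.131), and Scgb3a1 gave -0.51 (adjusted p = 0.454) and Hp 0.13 (adjusted p = 0.465). The club cell mean was 10.25 to 10.33 on the arrays labelled FalcorKO and 10.35 to 10.54 on the WildType arrays. For the 9 markers other than Bpifa1 and Scgb3a1, a split chosen after their values were seen, the groups overlapped. Their mean was 10.54 to 10.60 on the arrays labelled FalcorKO and 10.49 to 10.64 on the WildType arrays. Because the genes left out had the lowest differences of the list, this overlap cannot show whether club cell markers differed.

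**Figure D5:**
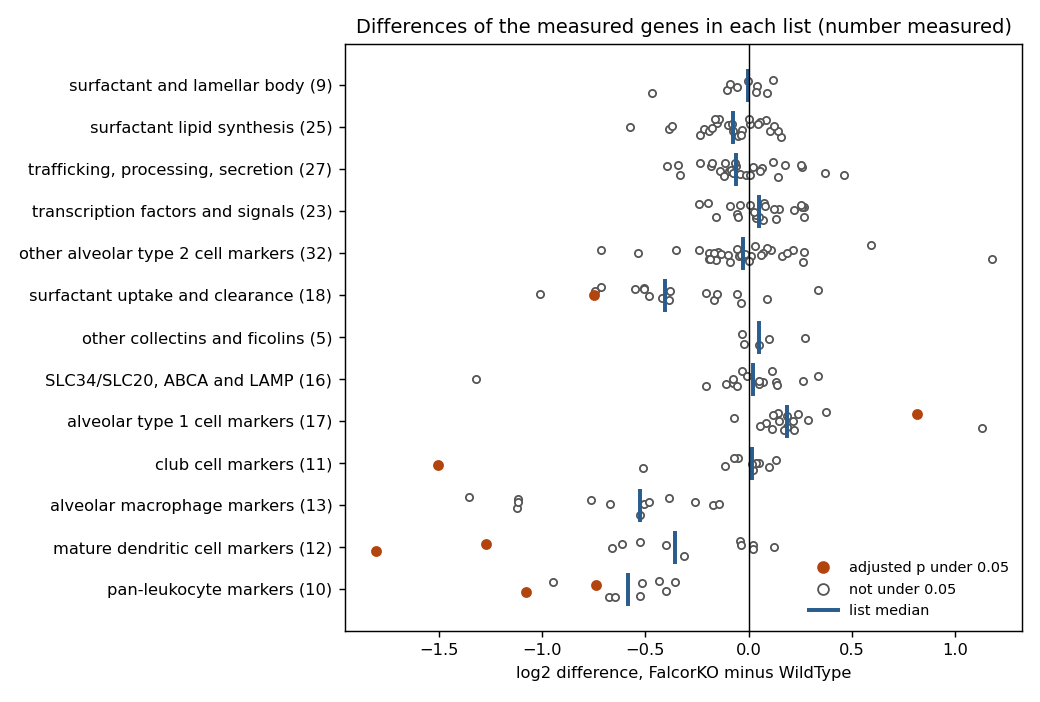
Log2 difference, FalcorKO minus WildType (horizontal axis), of every measured gene in the surfactant and lamellar body set and 12 related gene lists, with the number measured in parentheses. Filled circles passed, open circles did not, and blue bars are list medians. The surfactant set has its median at -0.0025, and the clearance, macrophage, dendritic cell and leukocyte lists have medians between -0.58 and -0.36.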

How the data were processed

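The authors deposited 1 table of log2 signals with a row for each probe set and a column for each array. Per the submitters' processing notes, oligo, RMA and limma were used; their versions and order are not given in the sources used here, nor are filters and the annotation build. RMA is meant to equalise the arrays' distributions and can therefore hide a change common to most genes. The deposited distributions were not equal and differed by group. Their minima were 2.09 to 2.42 on the arrays labelled FalcorKO and 3.19 to 3.22 on the WildType arrays. Correlations between arrays were 0.982 to 0.986 within groups and 0.97 to 0.976 between groups. This difference follows the group labels, so it cannot be told apart from genotype, and its cause was not tested. Whole-lung RNA was amplified by in vitro transcription and labelled with biotin, per the labels' protocols.

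Of the probe sets, 17476 carried a single gene symbol in the platform annotation and entered the test, while 1308 with several symbols and 5389 with none did not. Where a gene had more than 1 probe set (740 genes), its brightest probe set, averaged over all arrays, was taken. FalcorKO was compared with WildType in limma 3.58.1 (R 4.3.3, lmFit and eBayes), two-sided and without covariates, with Benjamini-Hochberg adjustment over 16537 genes and a threshold of 0.05. An exact permutation test of 3 against 3 arrays cannot go below 0.1.

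The members and the 12 related lists (221 genes, 201 of them measured, 8 in more than 1 list) were chosen with earlier results of these data known. Named were all members, Foxa2, Foxa1, Nkx2-1, Cebpa, Etv5, Falcor, and per list up to 3 genes with the smallest p and any that passed. Lists are described by counts and medians, with no set test. The fit was tested on simulated data. Plots used matplotlib 3.10.9 (Python 3.11.15).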

Additional observations from a re-analysis of the deposited data

How the results depend on the processing

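None of the 9 members passed under any of the 16 alternatives, and their smallest adjusted p was 0.152. Genes near 0 changed sign without passing. With arrays centred on their medians Sftpc gave 0.0257, and after a second quantile normalization Sftpa1 gave 0.0409 and Foxa1 0.0001. With 1 array left out, Sftpb ranged from -0.0083 to 0.0897, Sftpc from -0.0056 to 0.0023, Lpcat1 from -0.0275 to 0.1199, Foxa1 from -0.094 to 0.0268 and Fcna from -0.0903 to 0.0612. The median of the members ranged from -0.03 to 0.04. The labels did not state whether replicate numbers pair arrays. The deviations of same-numbered arrays correlated between -0.081 and 0.022, against -0.068 to 0.066 for other numbers. This gave no sign of a pairing across genes but cannot exclude one that affects some of them. What the replicate block stands for is thus not known. The number of genes passing was 92, against 32 with the replicate block, 131 with an intensity trend in eBayes, 108 without genes under the 30th percentile of mean signal and 18 to 89 with 1 array left out. The number of related list genes passing was 7, against 3, 10, 8 and 1 to 7 in those fits. Gained calls were Lcn2 (adjusted p = 0.0412), Chil3 (0.046) and Rac2 (0.0268) with the trend, Bex4 (0.0497) and Rac2 (0.0422) with the 30th percentile filter, Rac2 (0.0353) with the median filter, Igfbp2 (0.0443) and Chil3 (0.0346) with the replicate block, and Chil3 (0.0413) without WildType replicate 1. With the replicate block, the calls of Csf2 (adjusted p = 0.078), Spock2 (0.0846), Bpifa1 (0.104), Ccl22 (0.0517), Ccl17 (0.067), Cd37 (0.0625) and Falcor (0.119) were lost. The Cd52 call was kept there (0.0346). The block and the fits without 1 array have fewer degrees of freedom, and the cause was not tested otherwise. Centring on array medians and the second quantile normalization moved the median of all genes to 0.03 and 0.02. Csf2 gave no value where genes under the 30th percentile or the median of mean signal were left out. Signal over background is unknown, since no detection calls were used.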
